A study of Mus musculus with 6 samples.

Results

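Interferon-stimulated antiviral genes were followed in the distal colon of mice with chemically induced colitis. The 33 genes were fixed by name, as genes that type I and type III interferons switch on and the STAT and IRF regulators of that response, and all 33 were found among the 54532 genes of the deposited table. Of these, 33 passed the filter on low counts. The study sequenced poly-A RNA of 3 libraries labelled wild-type (WT 1 to WT 3) and 3 libraries labelled Itgbl1 -/- (KO 1 to KO 3). All 6 carry the same batch label and came from mice given dextran sulfate sodium (DSS) of 36 to 50 kDa at 3% in their drinking water for 7 days, so no group without colitis was analysed. DSS injures the colonic epithelium. The sources used here give neither the strain and age of the mice nor how the allele was made. Only a replicate number tells libraries of a label apart, and the spread behind each p-value may thus be technical.

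Interferons act through receptors on the cell surface. Type I interferons bind the receptor made of Ifnar1 and Ifnar2, and type III interferons bind the receptor made of Ifnlr1 and Il10rb, whose Ifnlr1 chain is known mainly from epithelial cells in the gut. Both receptors activate STAT2, which joins IRF9 in a complex that binds the interferon-stimulated response element. This DNA motif is known from promoters of interferon-stimulated genes. The products of these genes sense viral RNA, cut or block it, attach the ubiquitin-like protein ISG15 to other proteins, or feed back on the pathway.

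Libraries held 13326970 to 18321389 counted reads. Itgbl1, the targeted gene, had 19, 6 and 5 reads across WT 1 to 3 and 12, 4 and 10 reads across KO 1 to 3, so its reads did not separate the labels. Each direction given here is therefore one between labels. KO 3 stood apart from the rest: mitochondrially encoded genes took 12.8% of its reads against 3.53 to 4.88% in the other 5 libraries. The tissue label was borne out by epithelial markers in the wild-type libraries and in KO 2, but these were nearly absent from KO 3. Vil1, which encodes the brush border protein villin, was at 789, 851 and 914 CPM (counts scaled to a common total by TMM-scaled library sizes) across WT 1 to 3 and 47.1, 438 and 0.311 CPM across KO 1 to 3.

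Promoters of the genes are shown because the response element is the DNA motif through which the pathway is known to act. RefSeq promoter windows of GRCm38.p6, from 250 bases before to 50 bases after a gene's start, were matched for 23 of the 33 genes. The core of the response element was searched as GAAA, any 2 bases and GAAA on both strands, with overlapping matches counted. It was found in 13 of these 23 genes (56.5%), against 1079 of all 27025 genes in the table (3.99%) and 482 of the 12053 tested genes matched by symbol. The windows held 22 matches, 19 of them before the start, at a median of 85 bases upstream. The stretches below belong to the 8 genes with a match that had the smallest p in the comparison of the labels, with Trim30a shown at both of its starts. They are written 5′ to 3′ on the strand of the gene with the matches in capitals, and matches on the opposite strand read TTTC, any 2 bases and TTTC.
Stat2, chr10:128270251-128270310, plus strand: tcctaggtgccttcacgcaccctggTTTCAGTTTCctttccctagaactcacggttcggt
Rsad2, chr12:26456538-26456597, minus strand: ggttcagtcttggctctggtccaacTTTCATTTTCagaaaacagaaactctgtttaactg
Ddx58, chr4:40239789-40239848, minus strand: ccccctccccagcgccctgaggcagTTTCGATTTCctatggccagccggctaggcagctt
Ifih1, chr2:62646206-62646248, minus strand: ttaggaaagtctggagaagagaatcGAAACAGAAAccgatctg
Ifit1, chr19:34640760-34640838, plus strand: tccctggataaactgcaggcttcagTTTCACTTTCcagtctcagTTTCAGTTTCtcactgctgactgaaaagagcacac
Trim30a, chr7:104465195-104465254, minus strand: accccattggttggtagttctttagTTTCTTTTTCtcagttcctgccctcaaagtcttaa
Trim30a, chr7:104446089-104446148, minus strand: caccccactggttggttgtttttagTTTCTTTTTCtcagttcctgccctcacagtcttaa
Oas3, chr5:120777700-120777759, minus strand: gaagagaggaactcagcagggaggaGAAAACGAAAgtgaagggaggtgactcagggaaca
Oas1a, chr5:120907505-120907570, minus strand: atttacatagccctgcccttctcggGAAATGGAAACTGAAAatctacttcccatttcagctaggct

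Ifit1 carried 2 copies of the motif, and Oas1a carried 2 copies that overlap and share a GAAA. A match describes these letters only. The 13 genes with a match had log2 ratios of knockout over wild-type label from -2.39 to -0.42 with a median of -1.48, and the 10 genes with a window but no match ranged from -2.48 to -0.70 with a median of -1.61. Among other tested genes the median was 0.014 for 469 genes with a match and 0.045 for 11561 without one. The medians with and without a match were thus close within each set.

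As a group the 33 genes were lower in the libraries labelled knockout, very strongly so in KO 1 and KO 3 and mildly in KO 2. Their summed level was 4852, 4373 and 5456 CPM across WT 1 to 3 and 748, 3623 and 728 CPM across KO 1 to 3. KO 1 and KO 3 thus held 15.3% and 14.9% of the wild-type mean, and KO 2 held 74.0%. In bulk tissue, fewer cells of a type and less RNA per cell cannot be told apart. The log2 ratio was below 0 for all 33 genes (median -1.47), against 46.9% of all 16861 tested genes negative and a median of 0.061 over them. None passed edgeR's quasi-likelihood test with Benjamini-Hochberg adjustment over all genes, where the share called was 0%, and adjusted p ran from 0.094 to 0.603. At an unadjusted p under 0.05, 14 of 33 were lower and 0 higher, against 12.3% of all tested genes lower and 11.8% higher.

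The libraries labelled knockout did not behave alike. Every gene was below every wild-type library in KO 1, and 32 of 33 were in KO 3. In KO 2, 20 of 33 were below every wild-type library, 12 lay within the wild-type range and 1, Bst2, lay above it. The matching shares of all tested genes were not counted for single libraries, so these counts have no background to be read against. The labels did not overlap for 19 of 33 genes, all lower under the knockout label, where 17.3% of all tested genes were lower without overlap and 32.3% were without overlap in either direction. The median coefficient of variation was 15.4% under the wild-type label and 99.1% under the knockout label. It was larger under the knockout label for 33 of 33 genes, and this share was not counted over all genes. The wider spread was not particular to these genes: Vil1 stood at 7.34% and 149%, and Muc2, a goblet cell marker, at 11.9% and 159%. Over genes with at least 20 reads in a pair of libraries, chi-square per degree of freedom was 50.7 to 140 within the wild-type label. Within the knockout label it was 219 to 253. Without KO 2 edgeR's quasi-likelihood test called 30 of 33 genes, all lower, and the median log2 ratio was -2.98. Of 17449 tested genes, 7.75% were called lower there and 10.4% in either direction. The 3 genes not called without KO 2 were Ifit3, Xaf1 and Mx2. With all 6 libraries DESeq2 called 10 genes, all lower, of the 28 to which it gave an adjusted p (Zbp1, Oasl1, Isg15, Mx1 and Ifi44 had none), against 6.45% of 19370 genes called lower. Limma-voom called 0, where 0% of all tested genes were called lower. Limma-voom with quality weights called 24, against 6.05% of all tested genes called lower. Without KO 1, 0 of the 33 genes passed the adjusted threshold of edgeR, where 0% of 17406 tested genes were called lower. Of the 33, 7 were lower at an unadjusted p under 0.05 against 10% of those tested genes, and the median log2 ratio was -1.17.

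**Figure D1:**
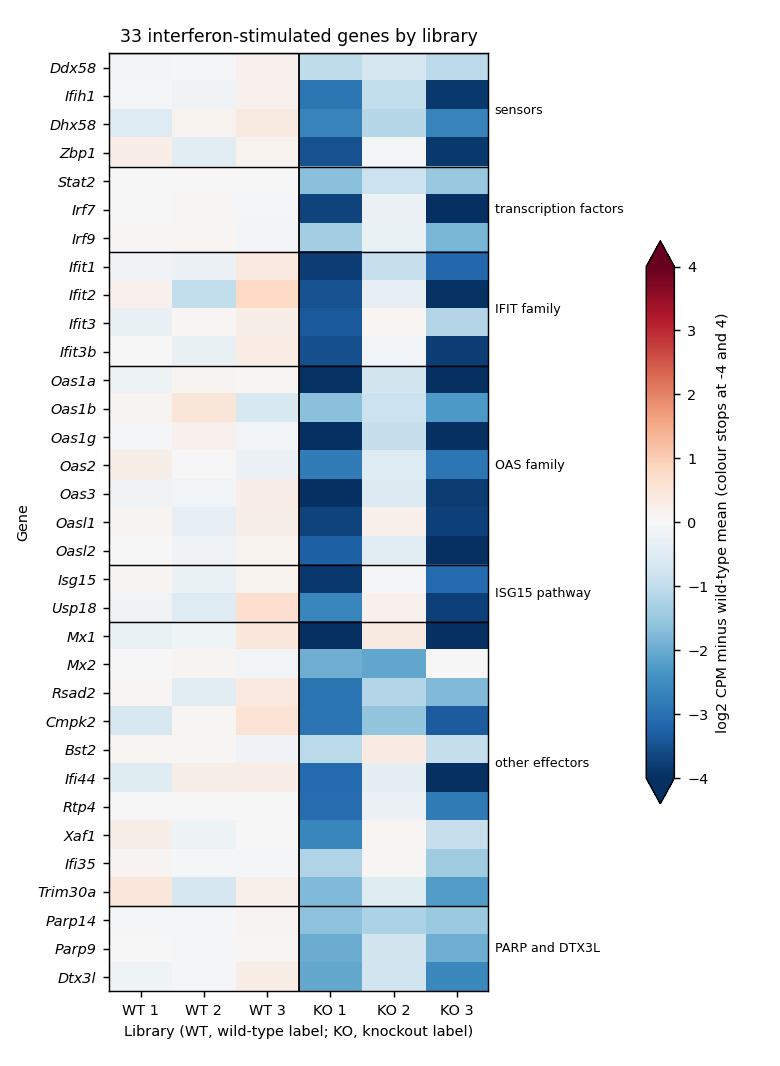
Log2 CPM of each of the 33 genes (rows, by role) in each library (columns), minus the mean of the wild-type libraries; blue is lower and red is higher, and colours stop at -4 and 4. KO 1 and KO 3 are blue throughout, Mx2 in KO 3 excepted. KO 2 is the highest of the libraries labelled knockout for 32 of the 33 genes, and 12 genes in KO 2 lay within the wild-type range.

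The transcription factors of the pathway were lower in each library labelled knockout than in each wild-type library. Stat2 (ENSMUSG00000040033, GRCm38 chromosome 10, 128270559 to 128292849), the STAT protein specific to type I and type III signalling, was at 158, 161 and 159 CPM across WT 1 to 3. The libraries KO 1 to 3 held 49.8, 88.7 and 56.0 CPM. The means were 159 ± 1.97 and 64.8 ± 20.9 CPM (SD, n = 3 each), and the groups lay far apart. The log2 ratio was -1.30 ± 0.29 (SE, edgeR adjusted p = 0.0983).

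Irf9, the DNA-binding partner of STAT2, was at 124, 126 and 110 CPM across WT 1 to 3 and 47.1, 101 and 33.5 CPM across KO 1 to 3. KO 2 lay just under the lowest wild-type library, and the log2 ratio was -0.99 ± 0.42 (edgeR adjusted p = 0.203). Irf7, the factor that amplifies the interferon response and is itself induced by it, was at 561, 574 and 542 CPM across WT 1 to 3 and 42.9, 476 and 32.2 CPM across KO 1 to 3. KO 1 and KO 3 held 7.67% and 5.75% of its wild-type mean, and KO 2 held 85.2%. Its log2 ratio of -1.61 had a 95% interval from -3.99 to 0.78 (adjusted p = 0.367). Stat2 and Irf7 therefore differed in how KO 2 stood: at 55.6% of the wild-type mean for Stat2 and close to the wild-type libraries for Irf7.

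Sensors of viral RNA and DNA showed the same pair of patterns. Dhx58, which encodes the RIG-I-like regulator LGP2, was at 38.5, 60.4 and 70.1 CPM across WT 1 to 3 and 8.55, 24.9 and 8.47 CPM across KO 1 to 3, with a log2 ratio of -2.01 ± 0.50 (edgeR adjusted p = 0.104). All 3 libraries labelled knockout were below the lowest wild-type library. Ddx58, the gene of RIG-I, was at 54.0, 56.1 and 65.9 CPM against 29.1, 36.9 and 28.1 CPM. Its difference was among the smallest of the 33, at -0.90 ± 0.23, but even over the libraries labelled knockout (edgeR adjusted p = 0.104). Ifih1, the gene of the long-RNA sensor MDA5, had a log2 ratio of -2.09 ± 0.69 and also did not overlap. Zbp1, a sensor of left-handed nucleic acids that can trigger cell death, was at 395, 247 and 367 CPM across WT 1 to 3 and 29.5, 313 and 22.8 CPM across KO 1 to 3. KO 2 lay within the wild-type range, and its log2 ratio of -1.47 ± 0.99 was far from the threshold (adjusted p = 0.397).

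The IFIT genes, whose products bind foreign RNA and hold back its translation, lie side by side on chromosome 19. Ifit1 (chromosome 19, 34640871 to 34650009) was at 209, 195 and 300 CPM across WT 1 to 3 and 16.9, 122 and 26.0 CPM across KO 1 to 3, with a log2 ratio of -2.09 ± 0.74 (edgeR adjusted p = 0.159). It was the only IFIT gene of the 4 whose labels did not overlap. Ifit2 was at 290, 131 and 449 CPM across WT 1 to 3, the widest spread of the 33 within the wild-type label, and at 23.1, 205 and 16.5 CPM across KO 1 to 3. KO 2 was above WT 2, so the labels overlapped.

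Ifit3 and Ifit3b are neighbours that share sequence, and reads could be assigned to either. Of the 100-base stretches of their transcripts in GENCODE M21, 31.7% of those of Ifit3 also occur in Ifit3b and 27.4% of those of Ifit3b in Ifit3. Ifit3 was at 63.6, 83.4 and 93.1 CPM across WT 1 to 3 and 7.56, 83.3 and 34.7 CPM across KO 1 to 3 (log2 ratio -0.94 ± 0.73, adjusted p = 0.464). Ifit3b, given for its likeness to Ifit3 and after its values were seen, was at 35.2, 29.0 and 44.0 CPM against 3.01, 33.2 and 2.49 CPM. In KO 3 the neighbours parted: Ifit3 held 43.4% of its wild-type mean and Ifit3b 6.90%, on 447 and 32 reads.

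The OAS genes encode enzymes that answer double-stranded RNA by making oligoadenylates, which activate the RNA-cutting enzyme RNase L, and OASL relatives that lack this activity or have other roles. All 7 lie on chromosome 5. Their summed level in KO 3, at 5.09% of the wild-type mean, was the lowest of the 7 roles, and it stood at 8.66% in KO 1 and 73.0% in KO 2. The labels did not overlap for 6 of 7, all lower, against 17.3% of all tested genes. Oas1b, annotated in the deposited table as a polymorphic pseudogene, was the least abundant of them per kilobase and was at 13.9, 18.1 and 8.31 CPM across WT 1 to 3 and 3.95, 6.98 and 2.49 CPM across KO 1 to 3 (log2 ratio -1.58 ± 0.50, adjusted p = 0.132). Oas2 was at 74.0, 63.7 and 54.3 CPM against 8.94, 44.0 and 8.55 CPM (-1.64 ± 0.66, adjusted p = 0.189). Both had an unadjusted p under 0.05, and no other OAS gene did.

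Of the OAS genes, Oas1g and Oas1a kept the smallest shares in KO 3, and Oas1g is given in full after its values were seen. Oas1g had 4 reads in KO 3. It was at 106, 123 and 101 CPM across WT 1 to 3 and 6.03, 56.4 and 0.311 CPM across KO 1 to 3, which is 0.282% of the wild-type mean in KO 3. Oas1a held 2.65% there. These genes share sequence as well: 40.9% of the 100-base stretches of Oas1a occur in Oas1g and 31.2% of those of Oas1g in Oas1a. Oasl1, the OAS gene with the largest p, was at 154, 112 and 165 CPM across WT 1 to 3 and 10.7, 162 and 10.6 CPM across KO 1 to 3, so that KO 2 was within the wild-type range (adjusted p = 0.498).

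Isg15, the ubiquitin-like modifier, and Usp18, the protease that removes it and that also blocks the type I receptor, were as high in KO 2 as in the wild-type libraries. Isg15 was at 276, 212 and 279 CPM across WT 1 to 3 and 17.3, 248 and 29.5 CPM across KO 1 to 3 (log2 ratio -1.38 ± 0.95, adjusted p = 0.404). Per kilobase of gene length it was the most abundant of the 33 under the wild-type label, at 338 ± 50.1 CPM per kilobase (SD, n = 3), followed by Irf7 at 148 ± 4.33 and Bst2 at 120 ± 9.58. Mx2 was the least abundant, at 3.03 ± 0.217 CPM per kilobase. Usp18 was at 62.3, 47.2 and 108 CPM across WT 1 to 3 and 11.1, 76.5 and 4.97 CPM across KO 1 to 3 (adjusted p = 0.455).

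**Figure D2:**
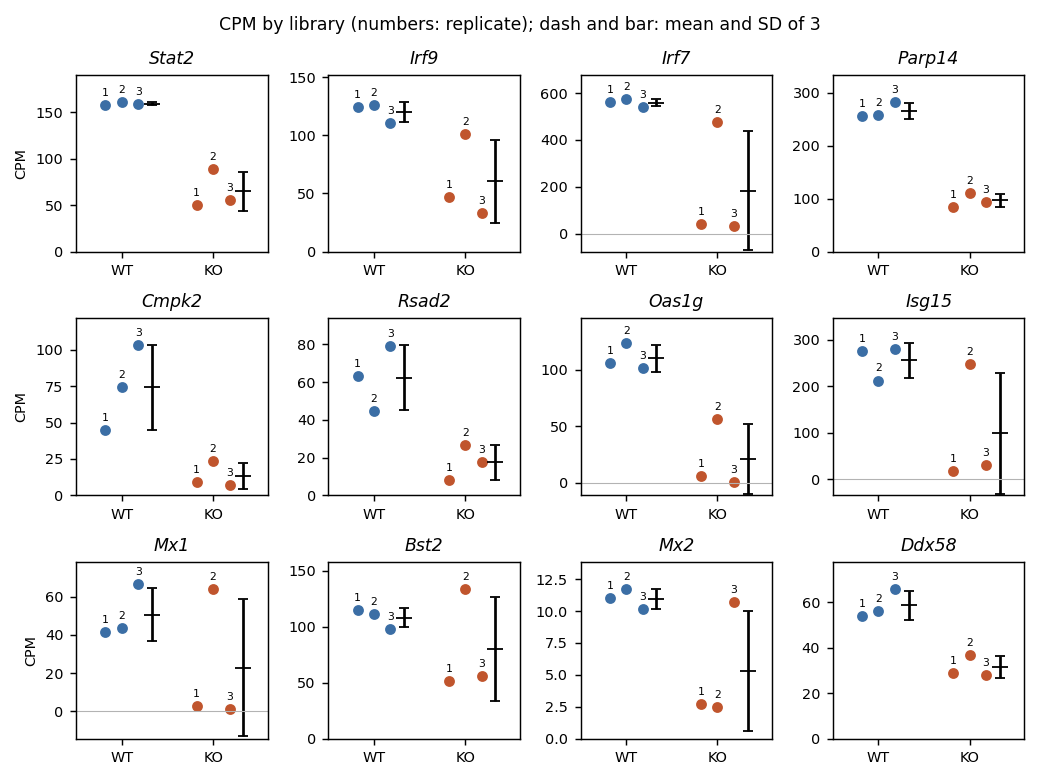
CPM of 12 of the genes in each library (blue, wild-type label; orange, knockout label; numbers are replicates), with the mean and SD of 3 libraries as a dash and bar. Stat2, Parp14, Cmpk2, Rsad2 and Ddx58 are below every wild-type library in all 3 libraries labelled knockout, whereas Isg15, Mx1 and Bst2 in KO 2 reach or pass wild-type libraries.

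Among the remaining effectors, Cmpk2 and Rsad2 were low in each library labelled knockout. They are neighbours on chromosome 12, at 26469204 to 26479837 and 26442746 to 26456452. Rsad2 encodes viperin, which makes a chain-terminating nucleotide, and Cmpk2 encodes the kinase that supplies it with CTP. Cmpk2 was at 45.1, 74.4 and 103 CPM across WT 1 to 3 and 9.14, 23.7 and 6.92 CPM across KO 1 to 3. Its log2 ratio of -2.48 ± 0.55 was the lowest of the 33 (edgeR adjusted p = 0.0975). Rsad2 was at 63.5, 44.6 and 79.1 CPM against 7.96, 26.7 and 17.8 CPM (-1.84 ± 0.46, adjusted p = 0.104). Neither overlapped between the labels, although WT 1 to WT 3 differed more than for Stat2.

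Mx1 and Mx2, neighbouring genes of dynamin-like GTPases on chromosome 16, went opposite ways in single libraries. Mx1 was at 41.4, 43.9 and 66.5 CPM across WT 1 to 3 and 2.96, 64.1 and 1.24 CPM across KO 1 to 3. It had the largest p of the 33 (log2 ratio -1.15 ± 1.26, adjusted p = 0.603), with KO 2 at 127% of the wild-type mean and KO 3 at 2.46%. Mx2, annotated as a polymorphic pseudogene and described after its values were seen, was at 11.1, 11.7 and 10.1 CPM across WT 1 to 3 and 2.72, 2.52 and 10.7 CPM across KO 1 to 3. It was the 1 gene of the 33 that was not highest in KO 2 among the libraries labelled knockout, and in KO 3 it held 97.8% of its wild-type mean. Its transcripts and those of Mx1 share little, with 1.13% of the 100-base stretches of Mx2 found in Mx1.

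Bst2, also described after its values were seen, encodes tetherin, which holds budding viruses at the cell surface. It was at 115, 111 and 98.3 CPM across WT 1 to 3 and 51.2, 134 and 56.2 CPM across KO 1 to 3, and its log2 ratio of -0.42 was the nearest to 0. The other 5 effectors had log2 ratios from -1.77 to -0.70. They were Ifi44, Rtp4, Xaf1, Ifi35 and Trim30a, which restrains inflammatory signalling, and of these Trim30a alone had an unadjusted p under 0.05 (-1.38 ± 0.52, adjusted p = 0.172).

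Parp14, Parp9 and Dtx3l, an interferon-induced block of ADP-ribosyltransferase genes and an E3 ligase gene on chromosome 16, were the role with the most even difference. Parp14 (ENSMUSG00000034422, 35832874 to 35871544) was at 255, 258 and 283 CPM across WT 1 to 3 and 84.8, 111 and 94.4 CPM across KO 1 to 3. Both labels were tight, at 265 ± 15.5 and 96.6 ± 13 CPM (SD, n = 3 each), and its log2 ratio of -1.46 ± 0.26 had the smallest p of the 33 (edgeR adjusted p = 0.094). Parp9 was at 189, 176 and 194 CPM against 46.6, 112 and 47.9 CPM (-1.44 ± 0.40, adjusted p = 0.114). Dtx3l was at 161, 171 and 218 CPM against 43.5, 107 and 30.2 CPM (-1.61 ± 0.49, adjusted p = 0.129). Parp9 and Dtx3l run in opposite directions and share 458 exonic bases in GENCODE M21, which is 9.40% of the exonic bases of Parp9 and 8.0% of those of Dtx3l, so without a stated strand setting reads there cannot be told apart.

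**Figure D3:**
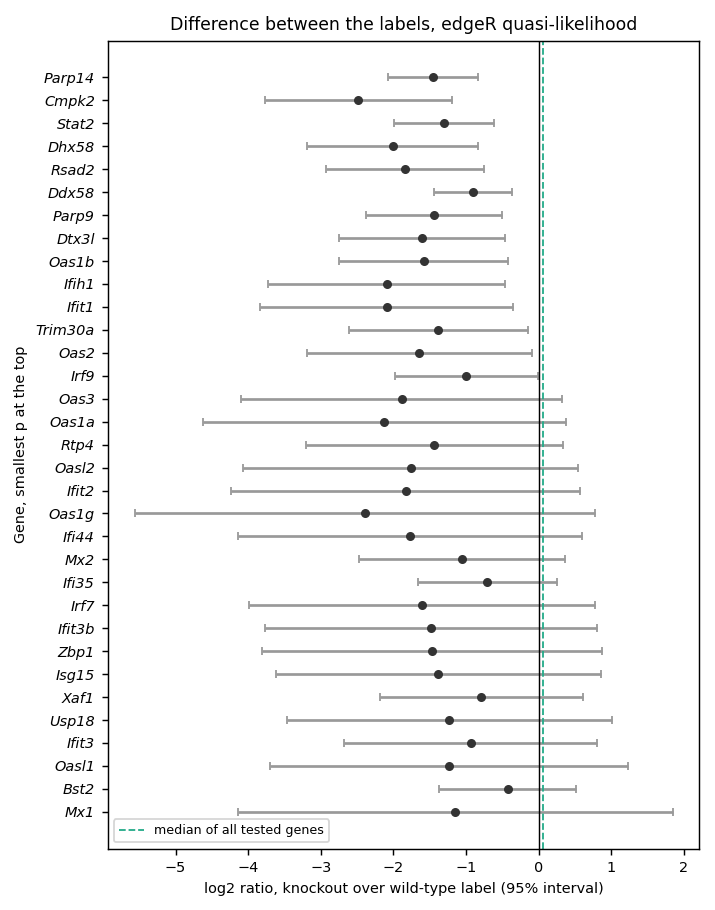
Log2 ratio of knockout over wild-type label with its 95% interval for each of the 33 genes, ordered by p with the smallest at the top; the dashed line is the median of all tested genes at 0.061. All points lie below 0, the intervals of the upper 14 genes exclude 0, and the widest intervals belong to genes such as Oas1g and Mx1, whose libraries labelled knockout lie far apart.

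In order of the KO 2 level, Mx2 stood lowest at 22.9% of its wild-type mean, followed by Cmpk2 at 31.9%, Parp14 at 41.7%, Rsad2 at 42.7% and Dhx58 at 44.2%. At the other end were Mx1 at 127%, Bst2 at 124% and Oasl1 at 113%. Of the 14 genes with an unadjusted p under 0.05, 13 were below every wild-type library in KO 2. That p comes from a fit that includes KO 2, so this count is in part fixed by how the 14 were chosen. In contrast, 9 genes stood under 10% of their wild-type mean in both KO 1 and KO 3 (Zbp1, Irf7, Ifit2, Ifit3b, Oas1a, Oas1g, Oas3, Oasl1 and Mx1) and between 51.2% and 127% in KO 2. Only 4 genes were under 50% in all 3 (Dhx58, Rsad2, Cmpk2 and Parp14). These subsets were formed after the values were seen and carry no test.

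The interferons themselves were barely read. Of 21 ligand genes, 13 had 0 reads in every library, Ifnb1 among them, and a count of 0 allows up to 3 reads per library, or 0.148 to 0.233 CPM. The type III genes Ifnl2 and Ifnl3 were at 0.236 and 0.118 CPM in WT 3, Ifnl3 was at 0.0594 CPM in WT 1, and both had 0 reads in the other libraries. The type I gene Ifna13 had 17 reads in KO 3 (1.32 CPM), 1 read in WT 2 and 0 elsewhere. Ifna1 had 4 reads in KO 2 alone, and Ifna7 had 3 reads in KO 3 alone. Ifnk had 3 reads in WT 1 and 2 in WT 3, and Ifnz had 2 reads in WT 1 and 1 in KO 1. Ifng, the type II interferon made by lymphocytes, was the 1 ligand that passed the filter, at 1.25, 0.886 and 0.767 CPM across WT 1 to 3 and 0.0988, 0.515 and 0.544 CPM across KO 1 to 3 (log2 ratio -1.34 ± 0.72, edgeR adjusted p = 0.299). Type I and type III ligands did not pass the filter and were not tested.

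The receptor chains went in different directions. Ifnlr1, the specific chain for type III interferons, was at 33.4, 25.6 and 25.7 CPM across WT 1 to 3 and 10.4, 15.8 and 3.50 CPM across KO 1 to 3 (log2 ratio -1.50 ± 0.52, adjusted p = 0.150). Ifnar2, the chain of the type I receptor that binds ligand most tightly, was at 40.3, 17.97 and 28.5 CPM against 68.8, 49.8 and 93.1 CPM (1.29 ± 0.38, adjusted p = 0.121). The labels did not overlap for either. Ifnar1 had a log2 ratio of 0.35, and Il10rb, which other cytokines also use, one of -0.60. The interferon gamma receptor genes Ifngr1 and Ifngr2 were at -1.08 and -1.20.

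Of 9 genes of JAK-STAT and IRF signalling, 7 had a negative log2 ratio, against 46.9% of all tested genes. At an unadjusted p under 0.05, 5 were lower and 0 higher, against 12.3% and 11.8% of all tested genes, and these shares apply to each list of the pathway. Tyk2, the kinase bound to Ifnar1, was at -1.10, Irf1 at -1.38, Irf2 at -1.24 and Irf8 at -1.12. Of 11 genes of nucleic acid sensing and its adaptors 3 were lower and 0 higher (12.3% and 11.8% of all tested genes). They were Tlr3 at -1.53, its adaptor Ticam1 at -1.07 and the RIG-I adaptor Mavs at -1.13. Of 7 negative regulators 6 were tested, with 3 lower and 0 higher against the same 12.3% and 11.8%, Adar at -1.26 among them. The list was split, with 3 negative and 3 positive log2 ratios. Only 1 gene of it was without overlap, against 32.3% of all tested genes.

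A wider list of 36 other interferon-stimulated genes had a median log2 ratio of -0.97. At an unadjusted p under 0.05, 15 were lower and 3 higher, against 12.3% and 11.8% of all tested genes. Slfn5 was at -1.54, Helz2 at -1.49, Sp100 at -1.25 and the RNA-activated kinase gene Eif2ak2 at -1.60. The 3 higher genes were Ifitm1, Ifitm2 and Ifitm3, whose products block the entry of viruses at membranes, and they were chosen after their values were seen. Ifitm1 was at 246, 35.2 and 140 CPM across WT 1 to 3 and 532, 685 and 632 CPM across KO 1 to 3 (log2 ratio 2.13 ± 0.66, adjusted p = 0.132). Ifitm3 was at 565, 149 and 302 CPM against 687, 1010 and 1838 CPM (1.80 ± 0.62, adjusted p = 0.153), and Ifitm2 had a log2 ratio of 2.17. All 3 Ifitm genes were above every wild-type library in each library labelled knockout. Over all 69 tested genes of the pathway lists, 30 were lower and 4 higher at an unadjusted p under 0.05 (12.3% and 11.8% of all tested genes), and 0 passed edgeR's adjusted threshold.

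**Figure D4:**
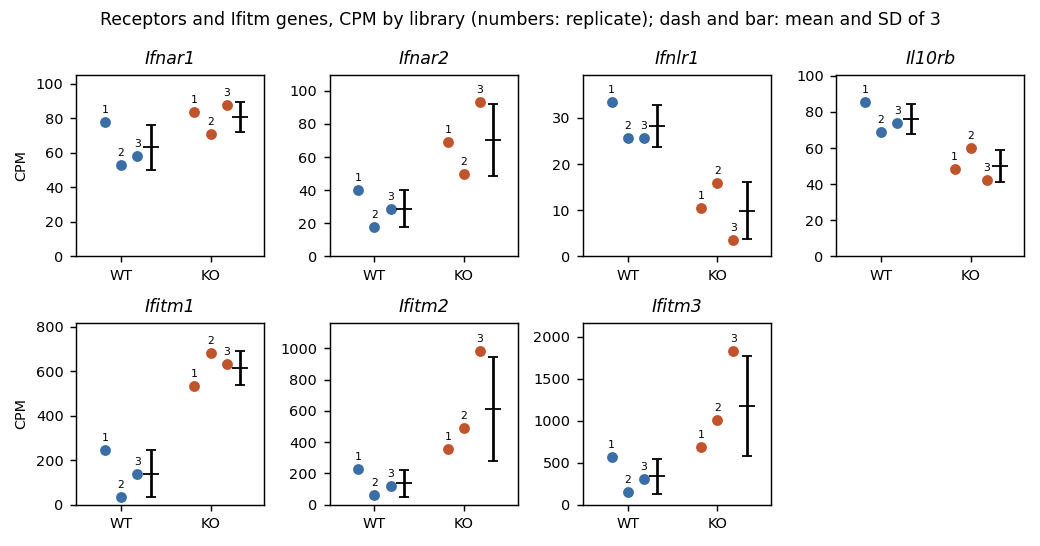
CPM of interferon receptor genes and the Ifitm genes in each library (blue, wild-type label; orange, knockout label; numbers are replicates), with the mean and SD of 3 libraries. Ifnlr1 and Il10rb are lower, and Ifnar2 and the 3 Ifitm genes higher, under the knockout label without overlap; Ifnar1 overlaps.

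Markers of several cell types also differed between the libraries. All 8 epithelial markers had a negative log2 ratio, and their summed level was 13749 to 19628 CPM in the wild-type libraries and 1068, 7038 and 50.1 CPM across KO 1 to 3. That is 6.62%, 43.6% and 0.311% of the wild-type mean, beside 15.3%, 74.0% and 14.9% for the 33 interferon-stimulated genes. The 6 goblet cell markers summed to 3.58%, 101% and 0.209%. In KO 3, epithelial markers were thus at a small fraction of the share that the interferon-stimulated genes kept, while in KO 1 the shares were closer.

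The 6 fibroblast markers summed to 1376 to 2430 CPM in the wild-type libraries and 3705 to 6590 CPM in the libraries labelled knockout, and all 6 had positive log2 ratios. In KO 3 most of the sum was Dcn, at 3515 CPM, while Col1a1 was at 43.7% of its wild-type mean. The 6 neutrophil markers summed to 9.37 to 412 CPM and 1113 to 6158 CPM, again with all 6 positive. S100a8 and S100a9 made most of the sum in KO 3, at 2440 and 3116 CPM. Csf3r overlapped between the labels and was highest in WT 1, at 54.1 CPM. Macrophage and monocyte markers were split, with 3 of 6 negative and sums of 262 to 602 against 594 to 848 CPM. Here too 1 gene, Cd14, made most of the sum in KO 3, at 709 CPM, and Csf1r, Adgre1 and Cd68 were at 22.5%, 21.4% and 50.8% of their wild-type means there. All 5 erythroid markers were higher at an unadjusted p under 0.05, against 11.8% of all tested genes. Their sum stood at 163%, 587% and 2649% of the wild-type mean across KO 1 to 3. Hba-a2 and Hbb-bt overlapped between the labels, at 99.8% and 139% in KO 1 against 174% and 178% in WT 1. The 6 endothelial markers had positive log2 ratios, with sums at 213%, 110% and 463%. Of 5 markers of conventional dendritic cells 3 were negative. Xcr1 and Clec9a, which mark the cross-presenting subset, were lower without overlap (log2 ratios -2.31 and -1.67). Xcr1 rested on few reads, at 72, 20 and 58 across WT 1 to 3 and 1, 16 and 11 across KO 1 to 3. Zbtb46 was higher without overlap (0.55), and Itgax (-0.91) and Flt3 (0.08) overlapped. Of all tested genes, 17.3% were lower and 15% higher without overlap. T cell markers summed to 47.2 to 86.4 against 36.8 to 77.4 CPM, with 4 of 6 negative. Of 5 markers of plasmacytoid dendritic cells, known as strong producers of type I interferon, 4 were tested, with 3 positive and 1 negative. Their sum stood at 179%, 126% and 288% of the wild-type mean across KO 1 to 3, most of it from Tcf4, which other cells also express. Siglech, the negative one, was at 0.443 to 1.07 CPM in the wild-type libraries and 0.642, 0.744 and 0 CPM across KO 1 to 3. The part of these cell types, and of the mitochondrial share of KO 3, in the lower interferon-stimulated genes was not tested. In the fit without KO 3 all 33 genes were negative, with a median log2 ratio of -1.23. There 11 were lower at an unadjusted p under 0.05, against 10.3% of 17353 tested genes. KO 1, whose epithelial markers summed to 6.62% of the wild-type mean, stayed in that fit, so it does not test that part.

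**Figure D5:**
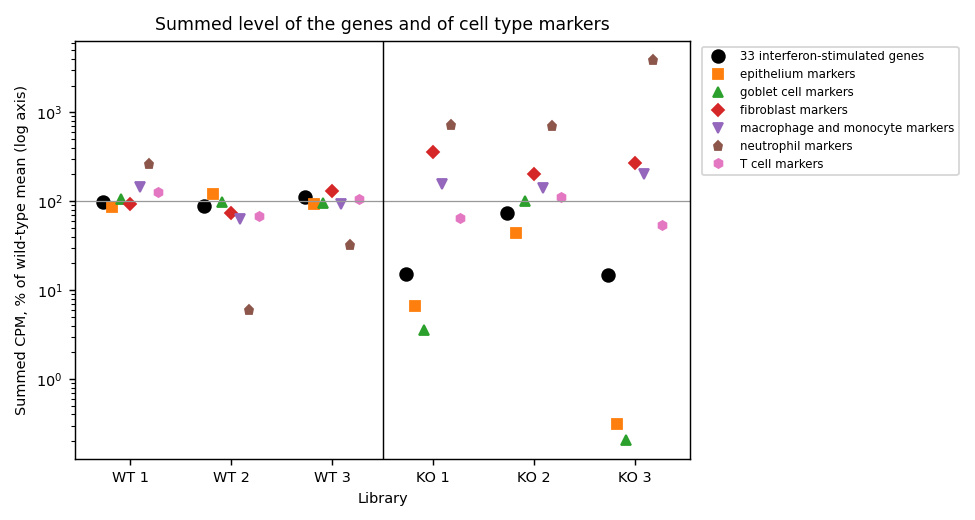
Summed CPM of the 33 interferon-stimulated genes (black circles) and of 6 lists of cell type markers in each library, as a percentage of the wild-type mean on a log axis. In KO 1 and KO 3 the interferon-stimulated genes stand at 15.3% and 14.9% while epithelial markers stand at 6.62% and 0.311%. Neutrophil markers stand above 100% in all 3 libraries labelled knockout and also in WT 1.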

How the data were processed

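Whole-number counts per gene were deposited, 1 column per library. The labels' protocols say that the authors removed adaptors, poly-N reads and reads of low quality. The submitters' processing notes list, without roles, the tools featureCounts 1.5.0-p3, StringTie 1.3.3b, HISAT2 2.0.5 and DESeq2, and the builds GRCm38 and mm10. For the strand setting and annotation release, nothing is given in the sources used here. Gene lengths and coordinates come from the deposited table, and all 33 genes had the same start and end in GENCODE M21.

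Genes were kept by filterByExpr (minimum count 10, minimum total 15), which left 16861. They were scaled by TMM and tested by robust quasi-likelihood F tests in edgeR 4.0.16 (R 4.3.3), without covariates, with adjustment over all genes and a threshold of 0.05. Intervals are 95% intervals of that fit. Log2 CPM used a prior count of 2. Alternatives used limma 3.58.1, DESeq2 1.42.0, other scalings and filters, a replicate block and each library left out. The quasi-likelihood test was checked on simulated counts. Chi-square per degree of freedom between libraries of a label was at least 50.7, so none was counted as a copy.

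The members and lists were chosen with earlier results of these data known. By rule, CPM in every library was given for the 2 smallest and the largest p of each role and for the transcription factors. Of the pathway lists, detected ligands, receptors and up to 4 genes with the smallest p could be named, and of the markers any. Any gene beyond these is marked as picked once its values were known. Protein sequences were not used here. The result of 1 pathway gene is not reported here.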

Additional observations from a re-analysis of the deposited data

How the results depend on the processing

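All 33 log2 ratios kept a negative sign under every alternative that gave them a value. Over all genes, the number past the adjusted threshold rose from 0 to 192 without a filter, 2029 with DESeq2, 1396 with limma-voom with quality weights and 3 with the replicate block, and ran from 0 to 1813 with each library left out. Among the 33 genes it rose from 0 to 10 with DESeq2 and 24 with quality weights, and ran from 0 to 30 with each library left out, 30 being without KO 2. The count at an unadjusted p under 0.05 went from 14 to 28 with limma-voom and 31 with quality weights (14.2% and 15.3% of all genes lower there, 12.3% in edgeR), and ran from 7 (without KO 1) to 32 (without KO 2) with each library left out, where 10% and 17.4% of all genes were lower. The median log2 ratio ran from -2.98 (without KO 2) to -1.17 (without KO 1). The count without overlap ran from 19 (without KO 1, 23.1% of all genes lower without overlap) to 32 (without KO 2, 27.0%). For the pathway lists the unadjusted count of 34 ran from 18 (without KO 1) to 45 (without KO 2), at 21 without WT 1 and 19 without WT 3. These counts take both directions, and 24.1% of all genes were called in either direction with all 6 libraries. The share of all genes called lower was 12.3% there. It was 10% without KO 1, 17.4% without KO 2, 10.4% without WT 1 and 8.31% without WT 3. The share in either direction was not counted with a library left out. The pathway counts there thus have no matching background, and the shares called lower cannot stand in for it. Replicate numbers did not pair the libraries (correlations of same-numbered deviations of -0.20, 0.087 and -0.075). The replicate block gave 0 genes of the 33 past the threshold and 20 at an unadjusted p under 0.05, where 11.7% of all genes were lower. All ligand genes but Ifng had too few reads to be tested.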
